A study of Drosophila melanogaster with 6 samples.

Results

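The genes described here are 56 CG-numbered genes of *Drosophila melanogaster* whose transcripts were already present in uninjured heads and stood higher in heads taken 4 hr after penetrating traumatic brain injury (PTBI). A CG number is the identifier that the fly genome annotation assigns to a computed gene, and it stays as the everyday name of a gene for which no one has published another. The genes were picked from the 367 genes in the authors' listing, which takes a change of at least 2-fold with an adjusted p under 0.05. A member had to be listed under a CG number, to average at least 1 RPKM (reads per kilobase of a gene's exons, divided by the library's size) over the 3 control samples, and to average more than that over the 3 PTBI samples. Of the 170 rows with a CG number, 121 were higher after PTBI. Of these 121, 45 lay under the 1 RPKM baseline in controls. A further 20 were left out by name, 6 of them Bomanins (a family of short immune-induced peptides) and 14 of them other genes, which leaves the 56. The remaining 49 CG-numbered rows were lower after PTBI. The contrast between PTBI and control chose the genes, so every level, fold and count of that contrast below is a description and carries no p-value. With 3 samples against 3, an exact two-sided permutation test of one gene cannot give a p under 0.1 in any case.

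PTBI heads came from males whose central brain had been pierced on both sides, under CO2, with a metal needle of about 12.5 µm at the tip, and control heads came from uninjured males of matched age. Flies of both groups came from a cross of w; UAS-mCD8-GFP;; OK107-GAL4 flies to yw flies. In their offspring the mushroom body driver OK107-GAL4 expresses the membrane-bound green fluorescent protein mCD8-GFP, and the controls carry these transgenes too. They were reared at 25°C and collected within 6 hr of eclosion, and each sample pooled 100 to 120 heads. Each group had 3 samples, described in the labels as biological replicates. Whole heads also hold fat body, muscle, eyes and haemolymph, so in such bulk samples fewer cells of a type and less RNA per cell cannot be told apart.

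Whole reads could be recovered for 357 of the 367 listed genes and for all 56 members, within 0.02 reads in each sample. The implied libraries held 30.2, 24.3 and 35.2 M reads after PTBI, against 29.8, 36.2 and 26.5 M reads in controls. No marker of neurons, photoreceptors, muscle or haemocytes from short lists of 4 to 7 genes was among the listed genes, and the label of the tissue could not be checked further because unlisted genes have no values. Of 6 fat body markers, 4 were listed and all were lower after PTBI. *Lsp2* was 11.8-fold lower, *fit* 8.90-fold, *Lsp1beta* 7.15-fold and *apolpp* 2.72-fold. Of 6 glial markers, *wrapper* and *Mdr65* were listed, 3.03-fold and 2.64-fold lower. Whether these shifts bear on the genes described here was not tested.

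Head injury in flies is followed within hours by transcription of immune genes. The Toll and Imd pathways end in NF-κB factors that switch on secreted peptides, and serine proteases of the haemolymph work in cascades upstream of Toll and of melanization. Many genes that respond to infection or wounding in flies still have only a CG number, among them genes for short secreted peptides. Genes with some transcript in the resting head differ from near-silent ones in a practical way, since their fold change rests on reads in both groups.

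The 56 genes together gave 2298 ± 174 RPKM per sample 4 hr after PTBI, against 739 ± 25.3 RPKM in controls (SD, n = 3 each), 3.11-fold higher. They took 0.304, 0.342 and 0.361% of all reads in the PTBI samples, against 0.117, 0.123 and 0.112% in the control samples. The share was thus higher in each of the 3 PTBI samples than in any control. The ratio of group means (fold) went from 2.05 in *CG8545* to 13.7 in *CG31775*, with a median of 2.78. It lay between 2 and 2.5 in 21 genes, between 2.5 and 3 in 12, between 3 and 5 in 16, between 5 and 10 in 5, and above 10 in 2. At 3-fold or more stood 23 of the 56 (41.1%), beside 38.1% of all 367 listed genes at that fold in the same direction. In all 56 the lowest PTBI sample exceeded the highest control sample, beside 70.6% of the listed genes. Both shares of the listed genes count the genes listed as lower too. Of the 259 genes listed as higher, 140 stood at 3-fold or more. In all 259 the lowest PTBI sample exceeded the highest control sample. Because the same contrast chose the members, nothing is read from any of these shares.

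**Figure D1:**
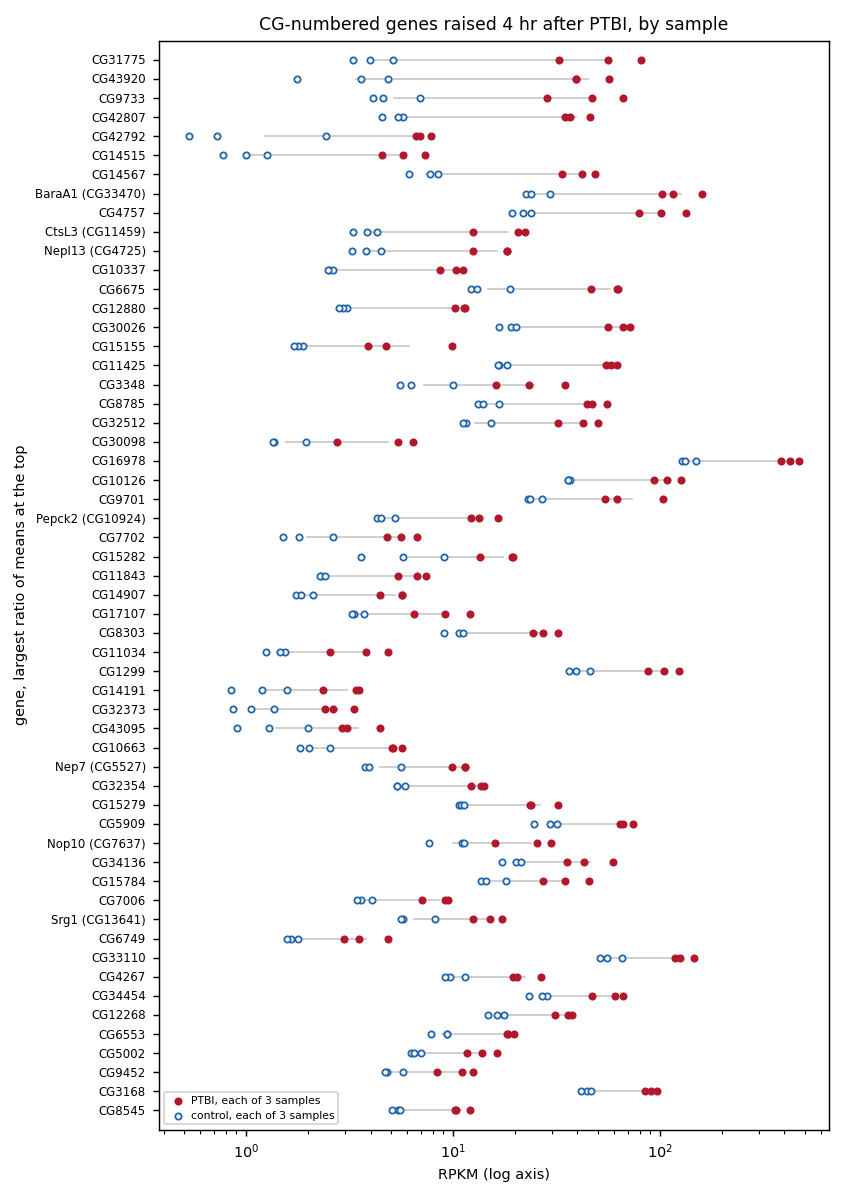
RPKM of each of the 56 genes in each sample on a log axis, 1 gene per row, ordered by the ratio of group means. Filled red points are the 3 PTBI samples, open blue points are the 3 control samples, and the grey line joins the group means. The red points lie right of the blue points in every row, with means of 2.80 to 426 RPKM after PTBI against 1.01 to 136 RPKM in controls.

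The rise was of moderate size next to that of other genes listed as higher. The median fold was 3.13 over all 259 genes listed as higher, and 3.01 over the 110 of them that also averaged 1 RPKM or more in controls and are not among the 56. Of those 110, 56 stood at 3-fold or more. The 45 CG-numbered genes under the baseline had a median fold of 4.62. These are medians of genes listed for their difference and no test was made between them. Along the control level within the 56 there was little order. The 23 genes at 1 to 5 RPKM in controls had a median fold of 2.88, the 23 at 5 to 20 RPKM a median of 2.41, and the 10 at 20 RPKM or more a median of 2.80. The rank correlation of fold with control mean was -0.20 across the 56 genes, which share the same 6 libraries and whose control mean is also the denominator of the fold.

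**Figure D2:**
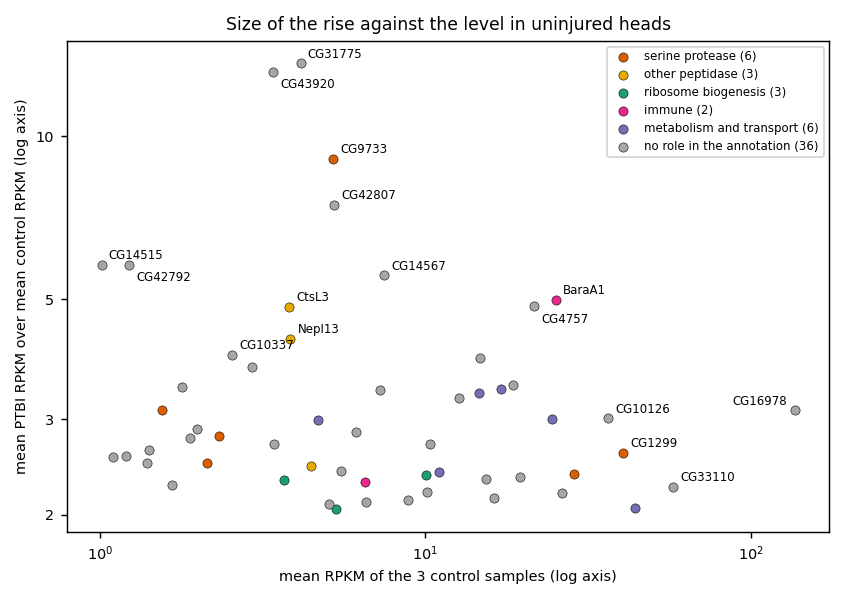
Mean PTBI RPKM over mean control RPKM of each gene against its mean RPKM in the 3 control samples, both on log axes. The colour is the role named by a symbol, synonym or gene list, and the legend gives the number of genes of each role. Labels mark the 12 largest folds and the 6 highest PTBI levels. The genes above 5-fold all lie under 10 RPKM in controls, with *BaraA1* just under 5-fold at 25.2 RPKM.

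At the baseline itself, the 3 members nearest to it were *CG14515* at 1.01 RPKM, *CG32373* at 1.10 RPKM and *CG14191* at 1.21 RPKM in controls, with folds of 5.79, 2.56 and 2.56. The 3 CG-numbered genes just under it were *CG8620* at 0.963 RPKM, *CG18171* at 0.948 RPKM and *CG43175* at 0.853 RPKM, with folds of 2.81, 1.93 and 22.2. The baseline therefore cut through genes of like level, one of which had a larger fold than any of the 56.

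Among the 56, 7 carry another symbol in the current annotation, and for 13 more a synonym or a gene list names a function. These 20 genes are given first, by role, and the roles were assigned after the values had been seen. The genes of an immune role were *BaraA1* (*CG33470*) and *Srg1* (*CG13641*). *BaraA1* encodes Baramicin A, a precursor that is cut into several secreted peptides and is induced through Toll after infection. It was at 103, 116 and 159 RPKM after PTBI, against 22.6, 29.4 and 23.8 RPKM in controls. The lowest PTBI sample was 3.50 times the highest control, and the mean log2 difference was 2.30 ± 0.22 (SE, n = 3 each). *BaraA1* has a near-identical copy, *BaraA2*, 3380 bp away on chromosome 2R, and short reads are hard to divide between such copies. The authors listed that copy as *IMPPP*, by an older name. *IMPPP* averaged 1709 ± 342 RPKM in PTBI samples and 336 ± 45.6 RPKM in control samples (SD, n = 3 each), 5.09-fold higher. The RPKM of *BaraA1* came to between 7.10% and 7.64% of that of *IMPPP* in all 6 samples, so the pair kept nearly a fixed ratio whichever the group, and the level of *BaraA1* alone is uncertain. *BaraA1* also shares exon sequence with *CG30059* on the opposite strand.

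*Srg1*, named as a gene regulated by STING (the receptor of cyclic dinucleotides in antiviral defence), was at 15.1, 12.5 and 17.3 RPKM after PTBI, against 8.17, 5.77 and 5.63 RPKM in controls. Control replicate 1 stood well above the other controls, and the lowest PTBI sample was only 1.53 times as high as this control. The fold was 2.29.

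Of the 56 genes, 6 are numbered among the fly's serine proteases and their homologs by an SP synonym in RefSeq. Their folds ran between 2.38 and 9.09 with a median of 2.70. *CG9733* (SP10) had the largest fold of the 6. It was at 28.6, 47.0 and 66.2 RPKM after PTBI, against 6.91, 4.58 and 4.11 RPKM in controls, and its mean log2 difference was 3.14 ± 0.42 (SE, n = 3 each). PTBI replicate 3 held more than double the level of PTBI replicate 1, yet the groups stayed apart. *CG1299* (SP18) was the most abundant of the 6, at 88.0, 124 and 104 RPKM after PTBI, against 39.4, 45.8 and 36.3 RPKM in controls. *CG5909* (SP8) was next, at 66.3, 74.5 and 64.1 RPKM after PTBI, against 29.4, 32.0 and 24.7 RPKM in controls. Both were thus well transcribed before injury and rose 2.60-fold and 2.38-fold. *CG11843* (SP43) stood at 5.42, 6.72 and 7.39 RPKM after PTBI, against 2.31, 2.28 and 2.40 RPKM in controls, with controls that differed by little. *CG10663* (SP30) was at 5.10, 5.14 and 5.71 RPKM after PTBI, against 2.02, 2.56 and 1.83 RPKM in controls. *CG30098* (SP221) was at 2.74, 6.40 and 5.45 RPKM after PTBI, against 1.95, 1.37 and 1.35 RPKM in controls. Its lowest PTBI sample was 1.41 times the highest control, the narrowest gap between the groups among the 56 genes.

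The other genes whose current symbol names a peptidase were a cathepsin and a pair of neprilysins. *CtsL3* (*CG11459*) is named as a cathepsin L, a cysteine protease family that works mainly in lysosomes. It was at 12.6, 20.5 and 22.3 RPKM after PTBI, against 4.32, 3.84 and 3.28 RPKM in controls, 4.84-fold higher. Neprilysins are zinc metalloproteases that cleave short peptides, many of them at the cell surface. *Nepl13* (*CG4725*, a neprilysin-like gene) was at 12.4, 18.2 and 18.2 RPKM after PTBI, against 3.26, 3.82 and 4.49 RPKM in controls, 4.23-fold higher. *Nep7* (*CG5527*) was at 9.92, 11.5 and 11.4 RPKM after PTBI, against 3.78, 5.62 and 3.93 RPKM in controls, 2.46-fold higher. The control levels of these 3 peptidases were close to each other, at 3.81 to 4.44 RPKM, while their PTBI means lay between 10.9 and 18.5 RPKM.

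Genes of ribosome biogenesis had some of the smallest folds. *Nop10* (*CG7637*) encodes a small core protein of the box H/ACA particles that guide pseudouridylation of ribosomal RNA. It was at 25.4, 29.9 and 16.0 RPKM after PTBI, against 11.0, 7.70 and 11.3 RPKM in controls, and its lowest PTBI sample was 1.41 times its highest control. *CG7006*, with the synonym dNIP7 after a yeast factor needed for the large ribosomal subunit, was at 7.06, 9.52 and 9.16 RPKM after PTBI, against 3.60, 3.44 and 4.04 RPKM in controls. *CG8545*, with the synonym NOP2 after a yeast ribosomal RNA methyltransferase, was at 10.4, 12.1 and 10.3 RPKM after PTBI, against 5.41, 5.53 and 5.07 RPKM in controls. The folds were 2.37, 2.32 and 2.05. Of all 367 listed genes 259 were higher after PTBI. In a list of 70 ribosome biogenesis genes, which held *CG7006* and *CG8545* but not *Nop10*, 6 were listed and all 6 were higher after PTBI. The others were *nop5* (3.16-fold), *Nop60B* (2.99-fold), *Fib* (2.98-fold) and *Nop56* (2.40-fold), so the median of the 6 was 2.69, beside 3.13 over all genes listed as higher. The remaining genes of that list were not listed, and no values for them were analysed here.

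By symbol, synonym or gene list, a further 6 genes belong to metabolism or transport. *CG11425*, with the synonym WUN-like after the lipid phosphate phosphatase Wunen, was at 55.2, 58.2 and 62.2 RPKM after PTBI, against 16.7, 16.5 and 18.2 RPKM in controls. It rose 3.41-fold with the samples of each group close together. *CG8785*, on the list of amino acid and sugar transporters, was at 55.6, 44.3 and 47.2 RPKM after PTBI, against 16.7, 13.2 and 14.0 RPKM in controls, 3.35-fold higher. Of the 23 genes on that list only *mnd* was listed besides it, and *mnd* was 2.83-fold lower after PTBI. *Pepck2* (*CG10924*) encodes a phosphoenolpyruvate carboxykinase, the enzyme family that commits carbon to gluconeogenesis. It was at 13.4, 12.2 and 16.5 RPKM after PTBI, against 4.29, 4.51 and 5.26 RPKM in controls, 3.00-fold higher. *CG9701*, with the synonym klotho after a mammalian membrane protein related to glycosidases, was at 54.3, 62.3 and 104 RPKM after PTBI, against 26.9, 23.0 and 23.6 RPKM in controls. PTBI replicate 3 stood far above the other PTBI samples of this gene, and without it the fold was 2.38 instead of 3.00. *CG15279*, with the synonym DmNAT6 for a nutrient amino acid transporter, was at 23.5, 32.0 and 23.8 RPKM after PTBI, against 10.7, 10.9 and 11.4 RPKM in controls. *CG3168*, with the synonym Slc22a18 after a mammalian organic cation transporter, was at 90.5, 97.4 and 84.9 RPKM after PTBI, against 44.4, 46.6 and 41.5 RPKM in controls. These last 2 transporter genes had folds of 2.40 and 2.06.

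**Figure D3:**
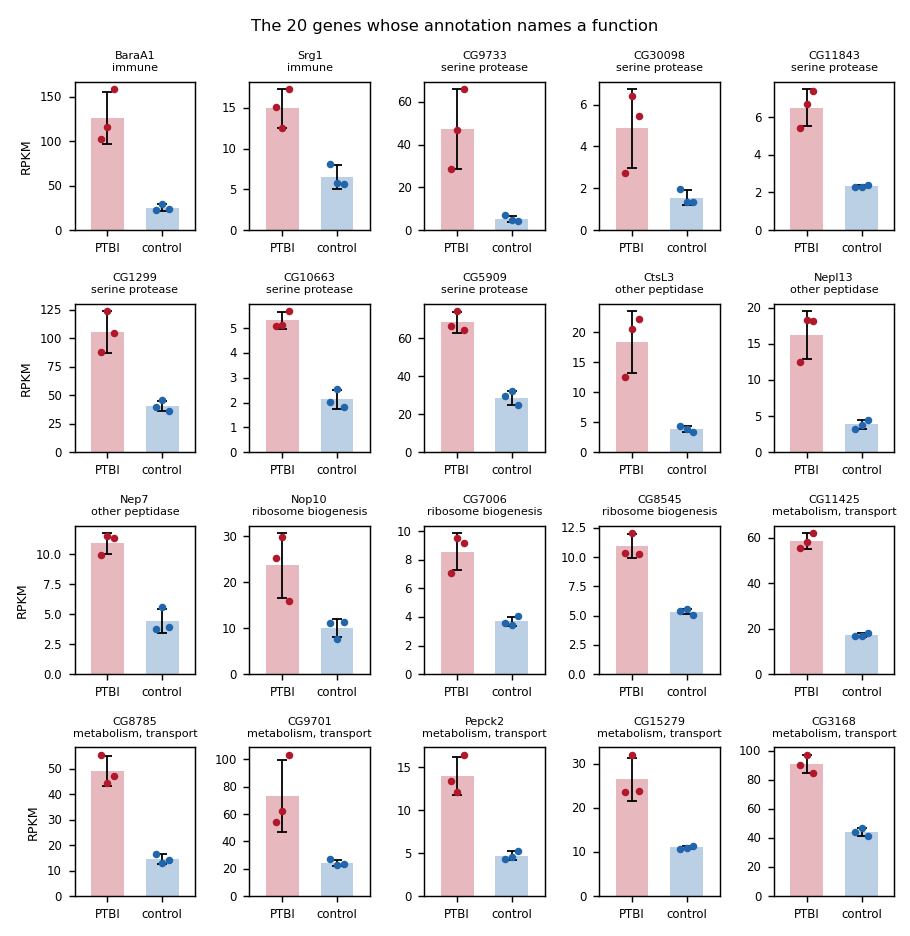
RPKM of the 20 genes whose symbol, synonym or gene list names a function, 1 panel per gene with its own linear axis starting at 0. Bars are group means, error bars are the SD over 3 samples and points are the samples, PTBI in red on the left and control in blue on the right. No panel has a control point as high as its lowest PTBI point, and the narrowest gap is that of *CG30098*, with 2.74 RPKM in its lowest PTBI sample against 1.95 RPKM in its highest control.

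For the other 36 genes no symbol, synonym or gene list used here names a function. Protein domains were not searched, so these 36 are not shown to be genes of unknown function. They held 8 of the 12 largest folds, close to their share of the 56. Their median fold was 2.81, against 2.70 for the 20 with a role. At 3-fold or more stood 16 of the 36 (44.4%), against 7 of the 20 (35.0%), beside 38.1% of all listed genes. The last share counts genes listed as lower too. Of the 259 genes listed as higher, 140 reached that fold. So did 56 of the 110 of them that averaged 1 RPKM or more in controls and are not members. *CG31775*, on chromosome 2L, had the largest fold. It was at 32.7, 56.0 and 80.9 RPKM after PTBI, against 3.28, 5.14 and 4.00 RPKM in controls, with a mean log2 difference of 3.70 ± 0.42 (SE, n = 3 each). The PTBI samples spread over 2.47-fold, although even the lowest was 6.37 times the highest control. *CG43920*, on chromosome 2R, was at 39.2, 56.6 and 39.2 RPKM after PTBI, against 3.61, 1.76 and 4.88 RPKM in controls, 13.2-fold higher. Its lowest PTBI sample was 8.03 times its highest control, the widest gap of the 56 genes, and its mean log2 difference was 3.82 ± 0.47 (SE, n = 3 each). The controls of *CG43920* rest on 44, 26 and 53 reads.

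*CG42807* was at 35.0, 45.7 and 36.9 RPKM after PTBI, against 5.77, 5.42 and 4.54 RPKM in controls, 7.48-fold higher. *CG14567* was at 33.7, 41.9 and 48.4 RPKM after PTBI, against 7.73, 8.51 and 6.13 RPKM in controls, 5.54-fold higher. In both genes the spread within a group was small beside the gap between the groups. *CG42792* was at 7.85, 6.93 and 6.62 RPKM after PTBI, against 2.44, 0.532 and 0.725 RPKM in controls, 5.80-fold higher. Control replicate 1 was far above the other controls of this gene, and without it the fold was 11.4. Control replicates 2 and 3, at 9 reads each, lay under the 1 RPKM baseline, so without replicate 1 the gene was no longer a member. *CG42792* was the member with the fewest control reads, 52 over the 3 samples, against a median of 874.5 over the 56 genes. *CG14515* was at 5.75, 4.56 and 7.30 RPKM after PTBI, against 1.26, 0.779 and 1.00 RPKM in controls, 5.79-fold higher. *CG4757*, one of the 6 most abundant members after PTBI, was at 101, 79.4 and 134 RPKM after PTBI, against 21.9, 23.8 and 19.3 RPKM in controls, 4.85-fold higher. *CG10337* was at 8.68, 11.2 and 10.3 RPKM after PTBI, against 2.51, 2.64 and 2.50 RPKM in controls, 3.95-fold higher. Its exons overlap those of *ref(2)P* on the opposite strand.

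*CG16978* was by far the most abundant of the 56 genes in both groups. It was at 425, 469.7 and 383 RPKM after PTBI, against 150.2, 128 and 132 RPKM in controls, and made up 18.5% of the summed RPKM of the 56 genes in each group. Its fold of 3.12 was thus close to that of the sum. *CG33110* was at 125, 118 and 146 RPKM after PTBI, against 55.6, 65.9 and 51.2 RPKM in controls, 2.25-fold higher. *CG10126* was at 93.4, 127 and 109 RPKM after PTBI, against 36.2, 37.0 and 36.1 RPKM in controls, 3.01-fold higher, and its 3 controls were the most alike of any member (coefficient of variation 1.35%). Together with *CG4757*, *CG1299* and *BaraA1*, these were the 6 members above 100 RPKM after PTBI.

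The remaining 23 genes without a named role rose by 2.10-fold to 3.89-fold, with PTBI means of 3.49 to 64.8 RPKM against control means of 1.40 to 26.3 RPKM. At 3-fold or more were *CG6675*, *CG12880*, *CG30026*, *CG15155*, *CG3348* and *CG32512*. Between 2.5 and 3 were *CG7702*, *CG15282*, *CG14907*, *CG17107*, *CG8303* and *CG11034*. The 11 under 2.5 were *CG43095*, *CG32354*, *CG34136*, *CG15784*, *CG6749*, *CG4267*, *CG34454*, *CG12268*, *CG6553*, *CG5002* and *CG9452*. Some of these genes were steady between samples and some were not. *CG12880* was at 10.2, 11.4 and 11.5 RPKM after PTBI, against 3.07, 2.93 and 2.82 RPKM in controls, and its coefficient of variation was under 10% in both groups. *CG15155* was at 4.74, 9.90 and 3.88 RPKM after PTBI, against 1.88, 1.79 and 1.70 RPKM in controls, so that PTBI replicate 2 stood alone, and without it the fold was 2.40 instead of 3.44. The 2 genes were chosen for this contrast after their values were seen.

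The spread between samples of a group had a median coefficient of variation of 16.9% after PTBI (4.22 to 52.8%) and 11.8% in controls (1.35 to 85.2%), n = 3 in each. PTBI replicate 1 was the lowest of its group in 34 of the 56 genes and the highest in 7, while replicate 2 was the highest in 26 and replicate 3 in 23. Over all 259 genes listed as higher, replicate 1 was likewise the lowest in 148. Over the control mean, the median level of the 56 genes stood at 2.45 for PTBI replicate 1, 3.02 for PTBI replicate 2 and 2.82 for PTBI replicate 3. PTBI replicate 1 thus ranked lowest in most members, as it did in most genes listed as higher. Without it the median fold of the 56 was 3.01 and 28 genes stood at 3-fold or more. In 5 genes the highest PTBI sample was at least 2 times the lowest, namely *CG31775*, *CG9733*, *CG15155*, *CG3348* and *CG30098*. In 6 genes the lowest PTBI sample was under 1.5 times the highest control, namely *CG30098*, *Nop10*, *CG9452*, *CG43095*, *CG14191* and *CG15282*. Over all 56 this gap ran between 1.41 and 8.03 times, with a median of 2.01.

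**Figure D4:**
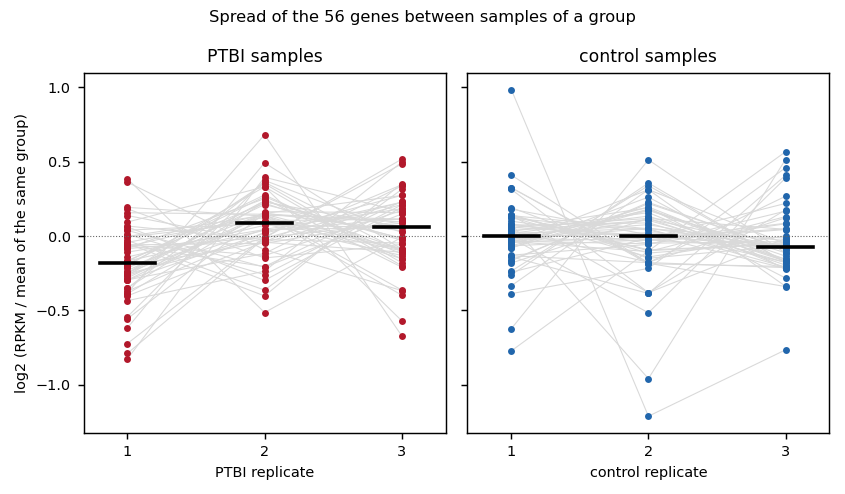
Log2 ratio of each sample's RPKM to the mean of its own group, PTBI samples on the left and control samples on the right. Points are the 56 genes, grey lines join the values of a gene and black bars are medians. PTBI replicate 1 lies lowest in 34 of the 56 genes, and the highest point among the controls is *CG42792* in control replicate 1, at 2.44 RPKM against 0.532 and 0.725 RPKM in the other controls.

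Gene structure and position were taken from the Ensembl 115 annotation of BDGP6, in which all 56 genes were found as protein-coding. No limit was set on either, but the 20 genes left out by name included Bomanins and groups of neighbouring genes. Of those 20, 45% had at most 100 residues, and their median was 124.5 residues. The lengths of the 56 thus depend in part on that choice. The longest annotated protein had a median of 333 residues (56 to 891), against 392 residues over all 13968 protein-coding genes, 284 residues over the near-silent CG-numbered genes that rose and 210.0 residues over the other listed genes that rose from 1 RPKM or more. At most 100 residues long were 9 of the 56 (16.1%), against 6.04% of all protein-coding genes and 1 of 43 (2.33%) near-silent ones. The share was 34 of 236 (14.4%) over all coding genes listed as higher and 22 of 101 (21.8%) over the other ones at 1 RPKM or more in controls, so it was not high for genes of this listing. The 9 were *CG43920* (56 residues), *Nop10* (64), *CG34136* (77), *CG15282* (79), *CG42792* (88), *CG31775* (89), *CG16978* (96), *CG17107* (96) and *CG3348* (98). They included the genes with the largest and the next-largest fold and the most abundant gene, and 8 of the 9 have no named role. Their median fold was 3.12, against 2.70 over the 47 longer ones, and the rank correlation of fold with protein length was -0.32 across the 56 genes. The share with 1 exon (17.9% against 16.3% of all protein-coding genes) and with 1 transcript (48.2% against 49.5%) was near that of the genome, and over all coding genes listed as higher these shares were 21.6% and 55.1%. No test was made of these shares.

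**Figure D5:**
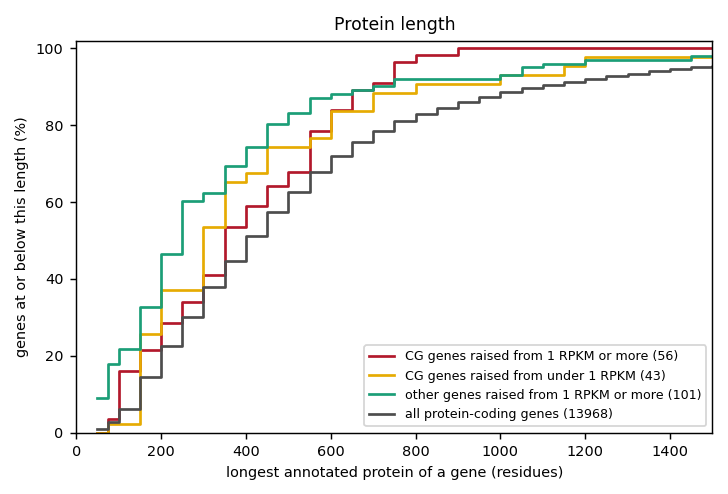
Cumulative share of genes, in percent, whose longest annotated protein has at most the number of residues on the x axis. Lines stand for the 56 genes raised from 1 RPKM or more (red), 43 CG-numbered genes raised from under 1 RPKM (yellow), 101 other genes listed as higher with 1 RPKM or more in controls (green) and all 13968 protein-coding genes (grey). At 100 residues the red line is at 16.1%, against 2.33% for the yellow, 21.8% for the green and 6.04% for the grey line.

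By chromosome arm, 12 genes lie on 2L, 12 on 2R, 10 on 3L, 18 on 3R (32.1%, against 24.5% of protein-coding genes) and 4 on X (7.14%, against 15.7%). Of the 253 placed genes listed as higher, the members included, 73 (28.9%) lie on 3R and 18 (7.11%) on X, so the arm shares of the 56 were close to those of the listing. The 20 genes left out by name included groups of neighbouring genes, so how the 56 sit to each other depends in part on that choice. No 2 members were next to each other and no pair lay within 10 kb. Within 20 kb there were 2 pairs, both on 3R, *Nepl13* with *CG43095* at 10079 bp and *CG7006* with *Srg1* at 12805 bp. The pair *CG15282* and *CG31775* on 2L lay 23791 bp apart. A neighbour was a listed gene found in the annotation and next in order among coding genes, and 3 members had one. Listed genes not found in the annotation could not be counted, so 3 is a minimum. *BaraA1*, 3380 bp from the listed *IMPPP*, is not among these 3. *CG32373* (chromosome 3L, 7650548 to 7759123, plus strand) spans *PGRP-SD* (7651180 to 7651900, plus strand), a secreted peptidoglycan recognition protein of the immune response. *PGRP-SD* averaged 86.2 ± 14.5 RPKM in PTBI samples and 25.3 ± 5.02 RPKM in control samples (SD, n = 3 each), 3.41-fold higher. *CG32373* itself was at 2.64, 3.34 and 2.42 RPKM after PTBI, against 1.06, 1.36 and 0.867 RPKM in controls, far under the gene inside it. The annotated exons of this pair do not overlap. *CG6553* lies 371 bp from *tum*, which averaged 1.04 ± 0.289 RPKM in PTBI samples and 0.454 ± 0.142 RPKM in control samples (SD, n = 3 each), 2.30-fold higher. *CG43095* has *CG7031* as a neighbour, and *CG7031* was lower after PTBI (ratio of means 0.488).

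Exons of 14 members overlap those of another annotated gene, 3 of them on the same strand (*CG32512*, *CG6749* and *CG4267*). The libraries kept strand, but whether the counting used it is not stated, so values of these 14 genes may hold reads of the partner. They include *BaraA1* with *CG30059*, *CG3348* with *Hmu*, *Nop10* with *CG12935* and *Srg1* with *CG7016*, all on opposite strands. Without the 14 genes the median fold was 2.81, against 2.78 with them.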

How the data were processed

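RNA-Seq values of 6 head samples, 3 after PTBI and 3 from uninjured controls, were grouped by the sample labels. The deposited values are RPKM: the authors made TruSeq strand-specific libraries, mapped single-end 50 bp reads to a FlyBase genome with Subjunc, and applied voom and limma to reads counted per gene. Which FlyBase release was used was not given in the sources used here. Subread and limma are named in the submitters' processing notes with no version. The tables hold called genes only. Their other columns hold the authors' own comparison (a mean level, a fold change on the log2 scale, and p before and after adjustment) and were not used. No column of other samples was present.

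Computed here were group means, SDs, ratios of means without a pseudocount, and the mean log2 difference with its SE, with pandas 2.3.3, numpy 2.4.6 and scipy 1.17.1 under Python 3.11.15, and figures were drawn with matplotlib 3.10.9. No test was run. Library sizes came from whole reads recovered from RPKM and exon length (Ensembl 115), a step tested on simulated data. Current symbols, RefSeq synonyms and gene lists gave roles. Identifiers of 360 of the 367 listed genes were found.

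Named were the 12 largest folds, the 6 highest PTBI levels, genes with another symbol, on a gene list, with a named role, next to each other or at the baseline. Members, lists and this rule were chosen with earlier results of these data known. Same-numbered PTBI and control samples deviated together over the 367 listed genes (correlations 0.24, 0.12 and 0.16), above the limit of 0.1 used to take the numbers as pairs, though the labels name no shared batch. Over the 56 members alone they were 0.14, -0.10 and -0.32. Among pairs of unlike number, PTBI replicate 2 with control replicate 3 gave 0.30 over the members. PTBI replicate 3 with control replicate 2 gave 0.27, and the remaining unlike pairs lay between -0.20 and 0.04. Same-numbered pairs thus did not stand out in the members. Alternatives covered the baseline, group medians, pseudocounts, centring, a replicate block and each sample left out. The authors' qRT-PCR and imaging were not analysed here.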

Additional observations from a re-analysis of the deposited data

How the results depend on the processing

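No member's fold changed direction under the 11 settings in which it was recomputed. Every PTBI sample of a member exceeded every control, so only the centring could have reversed a direction, and nothing is read from the other settings on this point. With no control baseline there were 101 genes, a median fold of 3.17 and 54 genes at 3-fold or more. A pseudocount of 1 RPKM gave a median fold of 2.33, and one of 5 RPKM a median of 1.98 with 9 genes at 3-fold or more. After subtracting from each sample its median log2 RPKM of the listed genes, which lay 0.75 (log2) higher after PTBI, the median fold was 1.65 and 8 genes were at 3-fold or more. This centring assumes that listed genes do not rise on balance, and most of them are listed as higher. Leaving out each sample in turn gave 56 genes each time, not always the same ones. Without control replicate 1, 2 were replaced, *CG42792* among them, and without control replicate 2, 1 was replaced. The median fold was 2.65 to 3.01, with 21 to 28 genes at 3-fold or more. Of the single genes only *CG42792* moved by over 1.5 times (5.80 to 11.4, without control replicate 1).

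With the replicate block, the median of ratios within same-numbered pairs, the median fold was 2.78 and again 23 genes stood at 3-fold or more, but 3 had fallen below it (*CG3348* at 2.90, *CG16978* at 2.91 and *CG15155* at 2.52) and 3 had come in (*CG15282* at 3.37, *Pepck2* at 3.13 and *CG14907* at 3.09). A control baseline of 0.5 RPKM gave 66 genes, a median fold of 2.80 and 28 at 3-fold or more, and one of 2 RPKM gave 45 genes, 2.79 and 19. Group medians gave 55 genes, 2.84 and 24, and leaving out genes with exon overlap (chosen after seeing the data) gave a median fold of 2.81. Sequence features of proteins and promoters, with their alternative window, were not run, because no sequences were used here. The listing holds called genes only, so levels of unlisted genes could not be set beside these, and depth limits *CG42792*, *CG14515* and *CG43095* most, with 52, 59 and 74 control reads in all.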

Other observations

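Gene groups outside the 56 were listed to very different extents. Beside the counts below, 259 of all 367 listed genes were higher after PTBI. Of 14 canonical antimicrobial peptide genes, 13 were listed and all 13 were higher after PTBI, with a median fold of 12.8. Of 23 genes of oxidative stress and detoxification, 3 glutathione S-transferase genes were listed and higher, *GstD5* (7.94-fold), *GstD2* (3.95-fold) and *GstD9* (2.47-fold). *GstD2* was at 16.6, 26.8 and 23.7 RPKM after PTBI, against 4.85, 6.67 and 5.49 RPKM in controls. Of 19 heat shock genes, the small chaperone genes *Hsp26* (3.84-fold) and *Hsp23* (2.66-fold) were listed and higher. *Hsp26* was at 55.0, 99.6 and 53.4 RPKM after PTBI, against 16.3, 18.2 and 19.7 RPKM in controls, with PTBI replicate 2 far above the other PTBI samples. None of 18 genes of the unfolded protein and integrated stress response was listed, and of 20 sodium-phosphate type transporters only *NaPi-T* (2.35-fold higher) was. Because only called genes were listed, a gene outside the tables has no value here.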
